A study of Mus musculus with 6 samples.

Results

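The cytosolic ribosomal protein genes encode the proteins of the small and large subunits of the cytoplasmic ribosome. They were chosen by symbol alone, as rows whose symbol starts with Rpl or Rps and a digit or is Rpsa, Rplp0, Rplp1 or Rplp2, leaving out pseudogene symbols, S6 kinases and Rps19bp1. The rule found 86 of 23417 gene rows, of which 49 are large-subunit genes, 3 are genes of the stalk, a flexible arm of the large subunit that recruits translation factors, and 34 are small-subunit genes. No measured value entered the choice.

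The cells were Kit+ bone marrow cells of wild-type C57BL/6 mice, enriched with CD117 beads, transduced with retrovirus and grown with the cytokines IL-3, IL-6, FLT3 and mSCF. There were 6 libraries, each of 1 construct: the control vector, the CSF3R forms W791 and Q741 (the truncation class, 2 libraries), and 3 forms with T618I, either alone or on a Q741 or W791 tail, written T618I/Q741 and T618I/W791 (the T618I-containing class, 3 libraries). CSF3R is the receptor for granulocyte colony-stimulating factor, and the study set the leukaemogenic proximal and double mutants against truncations that are not leukaemogenic. Every library shares the transduction, the sort of transduced cells and the overnight culture, the host cells keep their own Csf3r gene, and each construct was sequenced 1 time, so an SD or a test across a class measures the spread between constructs. Age, sex and pooling of the mice, the promoter of the vector and the species of the insert were not given in the sources used here.

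Ribosomal protein mRNAs are among the most abundant mRNAs of any growing cell. Most of them begin with a run of pyrimidines at the very start of the message, the TOP tract, through which mTOR signalling and the protein Larp1 control how much of the message is translated, so their mRNA level and their protein output can part. Blood cells are known to be sensitive to ribosomal protein dose: in humans, loss of 1 copy of several of these genes causes Diamond-Blackfan anaemia, and loss of 1 copy of RPS14 belongs to a myelodysplastic syndrome.

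Values are FPKM, the number of fragments divided by transcript length and by depth, a level per length that can be compared between genes. Values over the 6 libraries are given in a fixed order, which is vector, then the truncations W791 and Q741, then T618I alone, T618I/Q741 and last T618I/W791. The deposited columns summed to between 440108 and 492560 FPKM, and a rough depth, read back from the value of a single fragment in 3394 genes with 1 transcript, was 45700000 fragments for vector, between 21900000 and 24000000 fragments for W791, Q741, T618I and T618I/W791, and 28800000 fragments for T618I/Q741. Kit, the gene of CD117, was at 34.5, 30.1, 23.3, 32.6, 15.2 and 12.6 FPKM, so the 2 double-mutant libraries held the lowest levels. The summed level of 12 neutrophil marker genes was 3478, 4899, 4473, 20650, 37200 and 27820 FPKM, higher in each T618I-containing library than in any other. In these 3 libraries S100a8 (11020, 15810 and 13610 FPKM) and S100a9 (7240, 13780 and 11170 FPKM) made up most of the sum. Of the 12 genes, 9 were higher and 3 lower in T618I than in vector. In T618I/Q741 11 were higher and 1 lower than in Q741, and in T618I/W791 9 were higher and 3 lower than in W791. Summed erythroid markers were at 94.0, 96.4, 95.2, 266, 253 and 1189 FPKM, mast cell and basophil markers at 1948, 1926, 1805, 1743, 550 and 547 FPKM, monocyte and macrophage markers at 1162, 1227, 1276, 1162, 1265 and 472 FPKM, and megakaryocyte markers at 763, 986, 344, 2716, 1535 and 1496 FPKM. The summed lymphoid markers lay between 3.93 and 34.1 FPKM, with Cd3e under 0.1 FPKM in every library. In bulk RNA, fewer cells of a type and less RNA per cell cannot be told apart, and the part of this mixture of cells in the values below was not tested.

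Ribosomal protein genes made up between 15.1% and 17.7% of all FPKM. Their mean level over the 6 libraries was 1000 FPKM or more for 38 of the 86 genes, 200 to 1000 FPKM for 36, 10 to 200 FPKM for 7 and under 10 FPKM for 5. Between 52 and 59 of the 100 genes with the highest level in a library were members. Among the 74 members at 200 FPKM or more, the highest mean level was 8.89 times the lowest, so most of the subunit genes lay within 1 order of magnitude of each other.

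**Figure D1:**
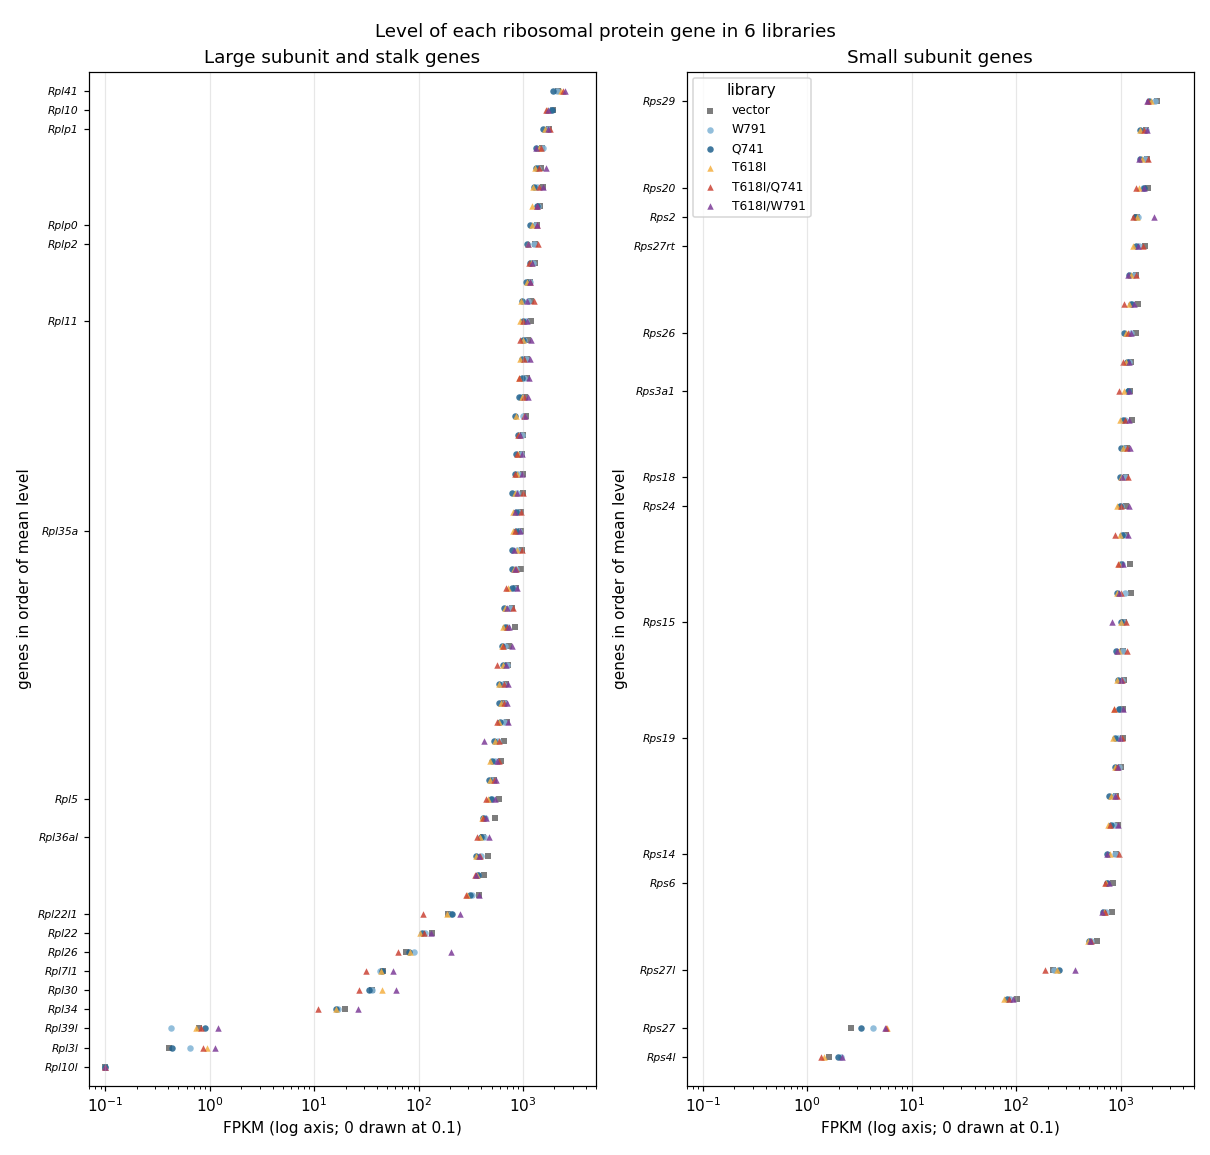
Level of each of the 86 ribosomal protein genes in FPKM (log axis; values at 0 are drawn at 0.1), with large-subunit and stalk genes at left and small-subunit genes at right, ordered by mean level, and 1 point per library; only genes named in the text carry a label. Most rows form tight clusters between 200 and 2514 FPKM, and the wide rows lie at lower levels, such as Rpl26, Rpl30, Rpl34 and Rpl22l1.

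The 3 members with the highest mean level were Rpl41, Rps29 and Rpl10. Rpl41, the shortest of the ribosomal proteins, was at 2156, 2097, 1936, 2298, 2404 and 2514 FPKM. Rps29, a zinc-binding protein of the small subunit head, was at 2244, 2125, 1893, 1938, 1834 and 1806 FPKM. Rps29 was highest in vector and Rpl41 in the T618I-containing libraries, so the 2 genes exchanged the first place between vector or W791 and the other 4 libraries. Rpl10, which joins the large subunit late in its maturation, was at 1931, 1858, 1876, 1710, 1670 and 1729 FPKM. The stalk genes Rplp0 (1179 to 1360 FPKM), Rplp1 (1559 to 1803 FPKM) and Rplp2 (1093 to 1399 FPKM) were all highest in T618I/Q741 and lowest in Q741. Large-subunit genes held between 48.3% and 49.3% of the members' summed FPKM and small-subunit genes between 45.3% and 46.3%, so the balance of the subunits moved by at most about 1 percentage point.

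Across the libraries the ribosomal protein genes varied less than most genes. Of the 86 members, 83 reached 1 FPKM in at least 2 libraries and were tested among 11188 genes. The ratio of the highest to the lowest library, taken on values + 1 FPKM, had a median of 1.26 over these 83 members and 1.53 over all tested genes. Abundant genes that encode no ribosomal protein did not share this: the median was 1.24 for the members at 200 FPKM or more and 1.64 for other tested genes at that level. A ratio of 1.5 or more was found for 9 of 83 members, against 52.9% of all tested genes. They include Rpl7l1, Rpl22l1, Rpl26, Rpl30, Rpl34, Rps2, Rps27 and Rps27l, named after their values were seen. Among these are 3 paralogs and 4 rows that share their sequence with another row of the table, both described further on.

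The summed share of the members was 17.7% of all FPKM in vector, 16.9% in W791, 16.1% in Q741, 15.1% in T618I, 15.1% in T618I/Q741 and 16.2% in T618I/W791. The highest share was that of vector, and the T618I-containing and truncation libraries overlapped, since T618I/W791 lay above Q741. The class means were 15.5% ± 0.622 (SD, n = 3) for T618I-containing and 16.5% ± 0.563 (SD, n = 2) for truncation libraries. This difference of -1.01 percentage points depended on which genes were counted in the total. S100a8 and S100a9, the 2 chains of calprotectin in neutrophil granules and cytosol, together held 0.446%, 0.642%, 0.588%, 3.91%, 6.02% and 5.15% of all FPKM. With these 2 genes and the stefin A genes left out of the total, the members' share was 17.8%, 17.0%, 16.2%, 15.9%, 16.5% and 17.5%, and the class means differed by 0.0837 percentage points. Leaving out genes that are high in 1 class must raise the share in that class, so the direction of this change was fixed beforehand. The parts of S100a8, S100a9 and the stefin A genes in it were not separated. The ribosomal protein FPKM itself summed to 81223, 76095, 70598, 70328, 74343 and 77785.

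**Figure D2:**
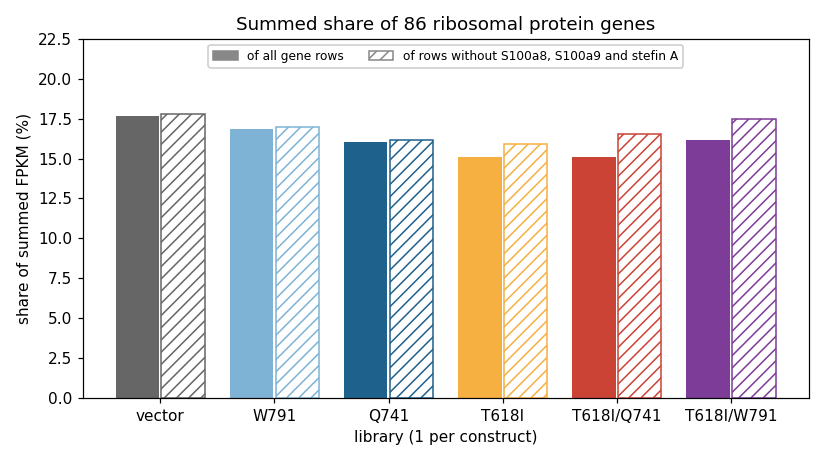
Share of summed FPKM (%) taken by the 86 ribosomal protein genes in each library, of all gene rows (filled bars) and of all rows but S100a8, S100a9 and the stefin A genes (hatched bars); each bar is 1 library and has no error. The filled bars are lowest for T618I and T618I/Q741 (15.1% each), and the hatched bars of the 3 T618I-containing libraries (15.9% to 17.5%) overlap those of the truncations (16.2% and 17.0%).

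No ribosomal protein gene differed between T618I-containing and truncation libraries in the test across all genes. With limma on log2(FPKM + 1) and Benjamini-Hochberg adjustment over 11188 genes, 0 of 83 members had an adjusted p under 0.05, where 0.179% of all tested genes were called higher and 0.0179% lower. The lowest adjusted p of a member by limma was 0.435, for Rps27, which was also the only member with an unadjusted p under 0.05 (0.0197). The log2 differences ran from -0.24 (Rpl22l1) to 0.49 (Rps27), with 67 of 83 members within 0.1 of 0 and 79 within 0.25. Of the 83 members, 45 lay above 0, where 3880 of 11188 tested genes did so. The members' median difference was 0.01, beside a median of -0.07 over all tested genes. Of the large-subunit genes 25 of 46 lay above 0, of the small-subunit genes 17 of 34, and of the stalk genes 3 of 3. Standard errors of these differences ran from 0.11 to 0.50, with 3 residual degrees of freedom.

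The sign of the class difference rested on how libraries were scaled to each other. Scaling by the median ratio to a mean library, which sets the typical gene at no change, put 75 of 83 members above 0. Their median was 0.10, and 5689 of 11188 tested genes lay above 0. Scaling each column to the same total put 8 of 83 above 0 with a median of -0.10. For all tested genes these values were 2382 of 11188 and -0.17. Under the 3 scalings the members lay above the median of all genes by about the same amount, and no member was called under any of them. A direction for the class as a whole is therefore given here only relative to the other genes.

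**Figure D3:**
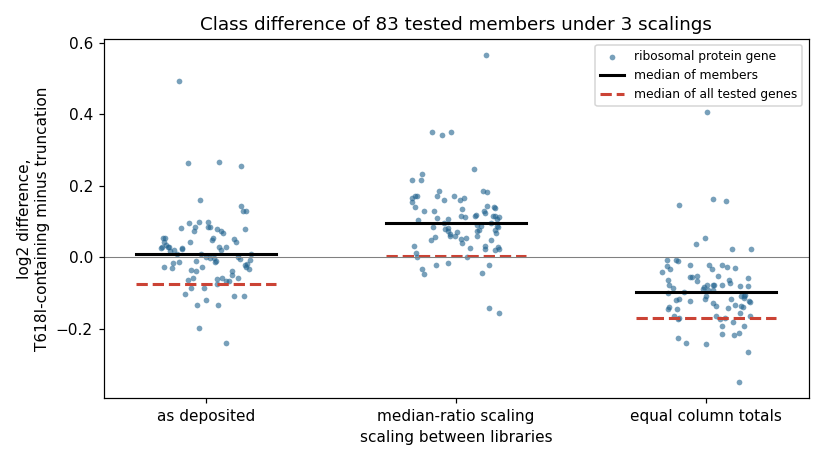
Log2 difference between T618I-containing and truncation libraries for the 83 tested ribosomal protein genes under 3 scalings, with 1 point per gene, a black line at the median of the members and a dashed red line at the median of all tested genes. The members' median is 0.01 as deposited, 0.10 after median-ratio scaling and -0.10 after scaling to equal column totals, and it lies above the dashed line each time.

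A few members did not overlap between the classes. In the deposited values Rpl41, Rpl9 and Rps27 were higher in all 3 T618I-containing libraries than in both truncations, 3 of 83 members where 9.22% of all tested genes did so. Rpl10 and Rpl15 were lower in all 3, 2 of 83 where 21.1% of tested genes did so. Both counts are below the background. Rpl41 averaged 2405 ± 108 FPKM (SD, n = 3) in T618I-containing and 2016 ± 115 FPKM (SD, n = 2) in truncation libraries, a log2 difference of 0.25 ± 0.12 (SE). By limma its adjusted p was 0.622. Rpl10 averaged 1703 ± 30.4 FPKM (SD, n = 3) against 1867 ± 12.9 FPKM (SD, n = 2), a log2 difference of -0.13 ± 0.11 (SE), with an adjusted p of 0.861 by limma. After median-ratio scaling 10 members were higher without overlap and 0 lower, where the background was 14.2% and 13.6%.

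The others among the 5 highest and 5 lowest class differences were smaller than their standard errors or barely above them. Rps2, a protein of the mRNA entry side of the small subunit, was at 1435, 1474, 1367, 1433, 1326 and 2102 FPKM, and only the T618I/W791 library stood apart. Rps20 was at 1835, 1659, 1696, 1497, 1412 and 1686 FPKM, a log2 class difference of -0.14 ± 0.13 (SE). Rps3a1 was at 1244, 1175, 1177, 1090, 970 and 1199 FPKM, a log2 class difference of -0.12 ± 0.14 (SE). In both small-subunit genes T618I/W791 lay above or between the truncation libraries, while T618I and T618I/Q741 lay below them.

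In the deposited values, the vector library had the highest ribosomal protein mRNA level for about 1 in 2 members. It was the highest of the 6 libraries for 41 of 83 members (49.4%), compared with 21.2% of all tested genes. For T618I-containing against vector libraries, 0 of 83 members were called by limma, where 0.134% of tested genes were called higher and 0.0268% lower. Their median log2 difference was -0.15, against -0.08 for all tested genes. Above 0 lay 8 of 83 members and 4027 of 11188 tested genes. Of the 83 members, 42 were lower in all 3 T618I-containing libraries than in vector (background 31.3%) and 2, Rpl41 and Rps27, were higher in all 3 (background 14.5%). After median-ratio scaling 25 of 83 members and 5694 of 11188 tested genes lay above 0, and the members' median was -0.05. On that scale 21 of 83 were lower without overlap, near the background of 21.7%, and 3 were higher (Rpl41, Rps2 and Rps27, background 22.0%). Vector can therefore be the highest of the 6 libraries for at most 21 members on that scale. The count of 41 thus rests on the scaling.

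For truncation against vector libraries, 0 of 83 members and 0 of all 11188 genes were called by limma (0.0% higher and 0.0% lower). At an unadjusted p under 0.05, no member passed by limma, while 27 of all genes did so in the higher and 46 in the lower direction. The members' median was -0.15 against -0.02 for all tested genes, and 70 of 83 were lower in both truncations than in vector, where 41.4% of tested genes were. The 5 members that were higher in both truncations were Rpl22l1, Rpl26, Rps27, Rps27l and Rps4l (background 33.0%). Median-ratio scaling left both counts as they were, 70 lower (background 38.6%) and 5 higher (35.8%). The comparisons with vector share a single vector library, so a value particular to that library would enter both of them, and vector was sequenced more deeply than the rest. Within the truncation class, W791 was above Q741 for 76 of 83 members and for 53.9% of all tested genes, so the members also moved together between 2 libraries of 1 class.

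The members known from inherited or acquired anaemia in humans kept to the same narrow range. Rps19, the gene most often mutated in Diamond-Blackfan anaemia, was at 1068, 951, 885, 852, 1036 and 982 FPKM, highest in vector and lowest in T618I. Rpl5 was at 586, 501, 493, 462, 440 and 535 FPKM, and Rpl11 at 1180, 1065, 1000.4, 940, 1006 and 1097 FPKM. The products of these 2 genes hold Mdm2, the ubiquitin ligase of p53, when ribosome assembly is disturbed. Both genes were highest in vector, and their T618I-containing and truncation libraries overlapped.

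Rps14, the gene of the myelodysplastic syndrome named above, was at 911, 892, 743, 800, 969 and 750 FPKM, high in vector, W791 and T618I/Q741 and low in Q741 and T618I/W791. Of the others in this group, Rps24, Rps26 and Rpl35a lay between 800 and 1415 FPKM. Their log2 class differences ran from -0.06 to 0.05, and over Rps19, Rpl5, Rpl11, Rps14 and these 3 genes the lowest adjusted p by limma was 0.994. Rps14 differed between the double mutants in the opposite direction to Rpl5 and Rps24, with a T618I/W791 to T618I/Q741 fold of 0.77 against 1.22 and 1.19.

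The rows with the widest spread were mostly rows with a near-identical copy elsewhere in the table. Ribosomal protein mRNAs have been copied into the genome many times as intronless retrocopies, and 78 of the 86 members had at least 1 other annotated gene with 95% identity or more over 200 bases or more. For 13 members such a gene had a row of its own in the table, and for 4 of these, Rps27, Rpl26, Rpl30 and Rpl34, the copy's row held most of the level. Fragments from identical stretches cannot be assigned to 1 locus from their sequence, so the level of each of these 4 rows is uncertain. The stretches below, from the GENCODE transcripts of mm10, show how close each pair is over 90 coding bases; capitals mark positions at which the member and its copy differ. Rps27 lies at chr3:90212522-90213651 and Rps27rt, an intronless protein-coding copy that is itself a member, at chr9:114982366-114982739, both on the minus strand, with 0 differences in 255 coding bases.
Rps27: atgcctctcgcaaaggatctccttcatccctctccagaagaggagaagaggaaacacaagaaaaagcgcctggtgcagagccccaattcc
Rps27rt: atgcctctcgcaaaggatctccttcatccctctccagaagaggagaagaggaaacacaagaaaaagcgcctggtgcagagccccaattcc

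The other 3 copies are annotated as processed pseudogenes. Rpl26 (chr11:68901583-68906989, plus strand) and Gm15772 (chr5:3236431-3236868, plus strand) differ at 2 of 438 coding bases, 1 of them in the stretch shown. Rpl30 (chr15:34440505-34443640, minus strand) and Gm12191 (chr11:49678710-49679057, minus strand) differ at 1 of 348. Rpl34 (chr3:130726831-130730398, minus strand) and Rpl34-ps1 (chr6:71124610-71124963, plus strand) differ at 2 of 354.
Rpl26: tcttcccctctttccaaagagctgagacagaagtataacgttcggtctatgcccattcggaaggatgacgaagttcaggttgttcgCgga
Gm15772: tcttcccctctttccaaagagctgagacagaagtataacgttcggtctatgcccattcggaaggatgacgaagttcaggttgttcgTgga
Rpl30: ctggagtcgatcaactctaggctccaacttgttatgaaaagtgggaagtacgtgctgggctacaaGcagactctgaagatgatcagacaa
Gm12191: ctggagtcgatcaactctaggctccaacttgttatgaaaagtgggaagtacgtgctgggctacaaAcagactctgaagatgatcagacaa
Rpl34: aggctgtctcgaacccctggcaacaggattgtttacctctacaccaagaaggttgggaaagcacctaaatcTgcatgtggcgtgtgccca
Rpl34-ps1: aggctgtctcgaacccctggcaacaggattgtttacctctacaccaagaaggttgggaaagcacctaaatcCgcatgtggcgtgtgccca

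Rps27, a zinc-binding protein of the small subunit, was listed at 2.62, 4.30, 3.25, 5.75, 5.70 and 5.58 FPKM, lowest in vector and highest in the 3 T618I-containing libraries. The class means of Rps27 were 5.68 ± 0.0878 FPKM (SD, n = 3) and 3.77 ± 0.743 FPKM (SD, n = 2). At this level the row rests on about 33 to 75 fragments per library, a counting error of 12% to 18%. Rps27rt was at 1714, 1506, 1417, 1329, 1650 and 1472 FPKM, so the Rps27 row held only 0.153% to 0.431% of the pair's sum. The sum of the pair differed by 0.02 on the log2 scale between the classes, against 0.49 for the Rps27 row alone.

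Rpl26 was at 75.2, 90.8, 80.5, 82.8, 63.4 and 206 FPKM, and Gm15772 at 1270, 1134, 1023, 1026, 1191 and 1067 FPKM. The T618I/W791 library thus stood apart in the Rpl26 row and lay within the range of the others in the copy's row. Rpl30 was at 35.5, 35.8, 33.4, 44.5, 26.7 and 61.1 FPKM and Rpl34 at 19.6, 16.9, 16.3, 16.3, 10.8 and 26.2 FPKM, in both cases lowest in T618I/Q741 and highest in T618I/W791. Their copies were far higher, with Gm12191 between 797 and 973 FPKM and Rpl34-ps1 between 959 and 1166 FPKM. From the lowest to the highest library, on values + 1 FPKM, the rows of Rps27, Rpl26, Rpl30 and Rpl34 spanned 1.87-fold, 3.22-fold, 2.24-fold and 2.31-fold. The sums with the copy spanned 1.29-fold, 1.22-fold, 1.22-fold and 1.20-fold, like the other members. The class differences of the sums of Rpl26, Rpl30 and Rpl34 were 0.06, 0.01 and -0.03 on the log2 scale.

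**Figure D4:**
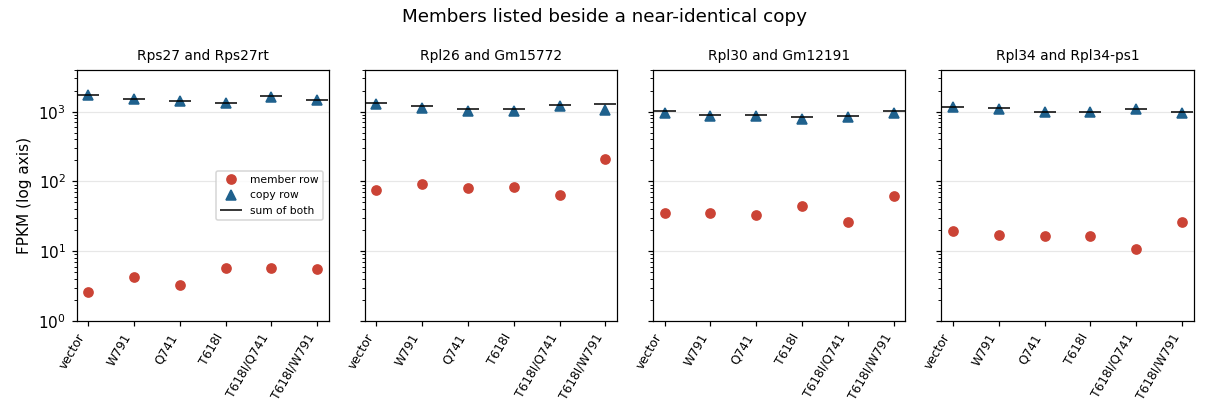
Level in FPKM (log axis) of the 4 members whose near-identical copy has the higher row, with the member's row as red circles, the copy's row as blue triangles and their sum as a black line, for each of the 6 libraries. The sums are nearly flat (1.20-fold to 1.29-fold from the lowest to the highest library), while the member rows, at 16.2% of the sum or less, spread by up to 3.22-fold.

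Of the 8 paralogs and tissue-restricted copies among the members, 3 varied most between the double mutants, 1 varied less and 4 were at or near the floor. Rpl22l1, the paralog of Rpl22, was at 190, 202, 207, 189, 111 and 247 FPKM. It was lowest in T618I/Q741 and highest in T618I/W791, 2.21-fold apart, with the other 4 libraries between 189 and 207. Rpl22, which mouse T cell development requires, was at 133, 116, 109, 104, 113 and 132 FPKM, so Rpl22l1 stood at 142% of Rpl22 in vector, 98.1% in T618I/Q741 and between 175% and 190% in the other 4. The row of Gm15421, a near-identical copy of Rpl22l1, was only between 0.389 and 0.820 FPKM.

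Rps27l, a paralog of Rps27 that p53 induces, was at 224, 231, 256, 244, 190 and 364 FPKM, again lowest in T618I/Q741 and highest in T618I/W791. Rps27l amounted to between 11.5% of Rps27rt in T618I/Q741 and 24.7% in T618I/W791. Rpl7l1, a paralog of Rpl7, was at 45.1, 43.0, 44.3, 43.3, 31.1 and 57.1 FPKM, the same order at the ends. In these 3 genes the vector, truncation and T618I libraries stayed close together, and only the double mutants left them, in opposite directions.

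Rpl36al, a paralog of Rpl36a, was at 412, 422, 392, 388, 361 and 470 FPKM, between 55.8% and 63.1% of Rpl36a. It too was lowest in T618I/Q741 and highest in T618I/W791, 1.30-fold apart. Rps4l, a copy of Rps4x, was at 1.61, 2.09, 1.96, 1.46, 1.37 and 2.15 FPKM, between 0.110% and 0.161% of Rps4x. Its lowest and highest libraries were the same as those of Rpl36al, at a level near the floor. Rpl3l, the form of Rpl3 in striated muscle, was between 0.408 and 1.13 FPKM and lowest in vector, and Rpl39l, best known from male germ cells, between 0.425 and 1.20 FPKM. Rpl3l, Rpl39l and Rpl10l did not pass the filter and were not tested, and Rpl10l, the testis form of Rpl10, was listed at 0 in all 6 libraries.

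Between single libraries with and without T618I, few members passed 2-fold. No library held CSF3R without a mutation. The first pair therefore sets T618I against the control vector and not against an unmutated receptor, so it does not show T618I alone. Each side is 1 library, so no test was made. T618I against vector had 0 of 83 members past 2-fold on the log2(FPKM + 1) scale (background 2.73% higher and 1.27% lower), and T618I/Q741 against Q741 had 0 (4.74% and 1.89%). T618I/W791 against W791 had 1 (2.34% and 4.26%), Rpl26, which was 2.26-fold higher. The member medians of these 3 differences were -0.22, 0.07 and 0.04, beside -0.07, -0.16 and 0.00 for all tested genes. On the deposited scale the members therefore lay below the other genes when T618I was set against vector and above them when T618I/Q741 was set against Q741. At 1.5-fold, Rps27 passed in the first pair (background 6.16% higher and 4.66% lower). In the second pair Rps27 was higher and Rpl22l1 lower (9.67% and 13.6%), and in the third Rpl26, Rpl30, Rpl34 and Rps27l were higher (7.73% and 11.4%).

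The 2 double-mutant libraries differed strongly in genes that build ribosomes and little in genes of the ribosomal proteins. T618I/W791 was 2-fold or more above T618I/Q741 for 4 of 83 members (7.58% of tested genes) and lower for 0 (5.88%). The 4 were Rpl22l1 and the 3 rows with copies, Rpl26, Rpl30 and Rpl34. At 1.5-fold, 7 members were higher (background 21.7%), with Rpl7l1, Rps27l and Rps2 added, and 0 lower (14.1%). The median log2 difference was 0.11 for the members and 0.12 for all tested genes. Of the members 54 of 83 lay above 0, and of all tested genes 6500 of 11188. After median-ratio scaling the members' median was -0.07, with 30 of 83 members and 5378 of 11188 tested genes above 0. The direction for the members therefore depends on the scaling. On that scale, added for this pair after seeing the data, 2 members, Rpl26 and Rpl34, were 2-fold or more higher (background 4.54%) and 0 lower (8.07%), and at 1.5-fold 6 were higher (15.3%) and 2 lower (19.1%).

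A list of 35 ribosome biogenesis genes, which encode RNA polymerase I subunits, processing factors and nucleolar proteins, was higher in T618I/W791 for 35 of 35, with a median log2 difference of 1.36. By 2-fold or more, 30 of the 35 were higher, and 26 were so after median-ratio scaling, with a median of 1.19. The summed level of this list was 1037, 1022, 1010, 987, 639 and 1687 FPKM, nearly level in the first 4 libraries. Of its genes, 34 of 35 were lowest of the 6 libraries in T618I/Q741 and highest in T618I/W791, a pattern found for 25.4% of all tested genes and for 16 of 83 ribosomal protein genes (19.3%). Ncl (nucleolin, a main protein of the nucleolus) was at 93.8, 87.2, 88.6, 91.9, 56.3 and 186 FPKM. Dkc1, the enzyme that makes pseudouridine in ribosomal RNA, was between 23.4 and 26.3 FPKM in the first 4 libraries, 11.9 in T618I/Q741 and 44.7 in T618I/W791. Myc, a transcription factor that drives ribosome production, had a smaller span, at 51.5, 50.7, 46.6, 49.2, 36.6 and 56.6 FPKM.

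Mitochondrial ribosomal protein genes, which serve the ribosome of the mitochondrion, lay between the cytosolic genes and the biogenesis list. Their median log2 difference between T618I/W791 and T618I/Q741 was 0.68, 72 of 76 were higher, 16 of them by 2-fold or more, and 56 of 76 (73.7%) were lowest in T618I/Q741 and highest in T618I/W791. Their share of all FPKM was 0.538%, 0.555%, 0.548%, 0.498%, 0.404% and 0.628%. The other TOP mRNAs, those of translation factors and a few more, were found for 21 of 22 symbols. Their median was 0.39, and 15 of 21 were higher in T618I/W791, where 6500 of 11188 tested genes were higher. Within this list Npm1, a nucleolar chaperone, was at 483, 473, 482, 473, 295 and 917 FPKM. Eef1a1, which brings aminoacyl-tRNA to the ribosome, was at 4007, 3628, 3522, 3393, 3252 and 3248 FPKM, nearly equal in the double mutants. Fau, which encodes a small-subunit protein fused to a ubiquitin-like protein, went the opposite way, at 1161, 1152, 1038, 1117, 1499 and 822 FPKM.

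In the class comparison none of these lists had a gene called by limma. Of the biogenesis genes 15 of 35 lay above 0 with a median log2 difference of -0.01. The other TOP mRNAs had 7 of 21 above 0 with -0.04, and the mitochondrial genes 26 of 76 with -0.04. Over all tested genes 3880 of 11188 lay above 0, near the shares of the last 2 lists, and the median was -0.07. The double mutants are both in the T618I-containing class, so opposite differences within it widen its spread. The libraries with these differences also differ in marker levels: summed erythroid markers were 1189 FPKM in T618I/W791 and 253 in T618I/Q741, monocyte and macrophage markers 472 and 1265 FPKM, and neutrophil markers 27820 and 37200 FPKM. The part of these cell types in the biogenesis difference was not tested.

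**Figure D5:**
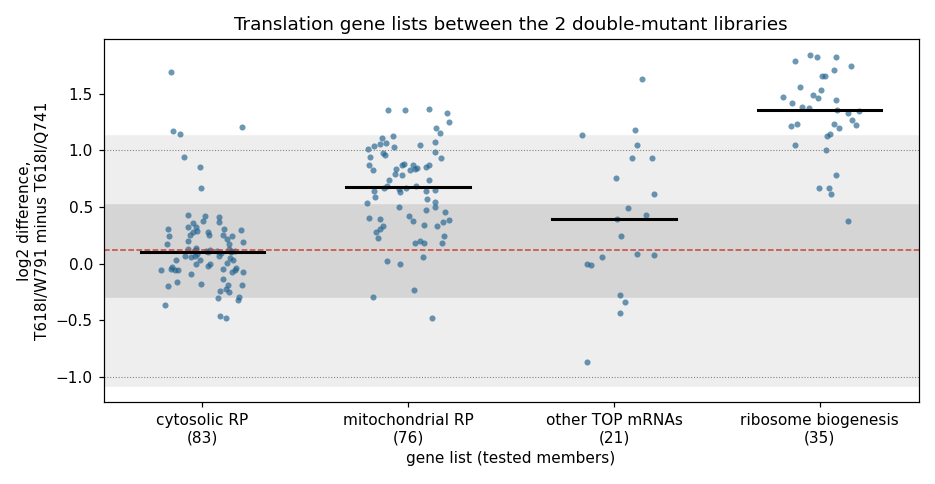
Log2 difference of T618I/W791 minus T618I/Q741, each 1 library, for the tested genes of 4 lists, with 1 point per gene and a black line at the list's median. The grey bands hold the middle 50% and the middle 90% of all 11188 tested genes, and the dashed red line is their median (0.12). Cytosolic ribosomal protein genes centre on 0.11, mitochondrial ones on 0.68, other TOP mRNAs on 0.39 and ribosome biogenesis genes on 1.36.

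The difference between the double mutants was set beside base composition. Over all 83 tested members, the log2 difference of T618I/W791 minus T618I/Q741 had a Pearson r of -0.20 and a Spearman rho of -0.27 with the GC content of the transcript. Over the 74 members at 200 FPKM or more r was -0.41 and rho -0.38, and over the 10629 tested genes with a transcript r was -0.24 and rho -0.26. For T618I/Q741 against Q741, r was 0.36 over the 83 members, 0.48 over the 74 and 0.171 over the 10629 genes. For T618I/W791 against W791 it was -0.149, -0.37 and -0.155, so the 83 members were near all genes there. These are correlations across genes of the same few libraries, genes are not independent replicates, and the part of GC content in the difference was not tested. Members low in T618I/W791 included Rps15, at 1082, 1087, 1004, 1009, 1139 and 828 FPKM, named after its values were seen.

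The TOP tract was looked for at annotated gene starts. In RefSeq promoter sequences of GRCm38.p6, which hold 250 bases before and 50 after a gene's start, 65 members were matched. A C followed by at least 4 pyrimidines at the annotated start, on the gene's strand, was found for 13 of 65 members, 0 of 67 mitochondrial ribosomal protein genes, 2.3% of tested genes and 2.5% of all 27025 genes. An annotated start that is off by a base hides such a tract. A C followed by at least 6 pyrimidines anywhere within 10 bases of the start was found for 35.4% of members, 10.4% of mitochondrial ribosomal protein genes, 9.6% of tested genes and 9.0% of all genes. The windows below hold 20 bases before and 10 from the start, with the pyrimidine tract at the start in capitals; they are shown because the tract is the known control element of these mRNAs. Rps6, the target of S6 kinase, was at 857, 750, 750, 723, 713 and 772 FPKM, Rps18 between 993 and 1174 FPKM, and Rpl38, which translation of some Hox mRNAs in mouse embryos requires, between 837 and 1061 FPKM. The windows of Rps27 and Rps27rt differ although their coding stretches printed above do not.
Rps6 (chr4:86857358-86857387, minus strand): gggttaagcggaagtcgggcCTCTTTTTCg
Rps18 (chr17:33955656-33955685, minus strand): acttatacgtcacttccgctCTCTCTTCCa
Rpl38 (chr11:114668560-114668589, plus strand): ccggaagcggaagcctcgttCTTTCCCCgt
Rplp2 (chr7:141447631-141447660, plus strand): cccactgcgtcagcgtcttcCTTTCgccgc
Rps27 (chr3:90213639-90213668, minus strand): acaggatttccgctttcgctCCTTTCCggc
Rps27rt (chr9:114982730-114982759, minus strand): ggttaagaacttatcccttgCTTTCCggcg

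Other motifs were searched on both strands of the whole promoter window. CCGGAAG, a motif of ETS-family factors, was in 38.5% of the members' promoters and 34.3% of those of mitochondrial ribosomal protein genes, against 19.7% of tested and 9.1% of all genes. TATAAA was in 9.2% of members, 6.7% of tested and 14.2% of all genes, and CACGTG, the E-box that Myc binds, in 7.7%, 10.6% and 7.2%. A match describes letters in this window and does not show that a factor binds there.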

How the data were processed

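RNA of 6 libraries, 1 per construct, was prepared with a stranded TruSeq mRNA kit, per the labels' protocols. The authors deposited 1 table of symbols and values in 6 columns, without naming the unit; the deposited values were read as FPKM, which Cufflinks writes. The submitters' processing notes name TopHat, Cufflinks and mm10. Tool versions, annotation and strand setting: not given in the sources used here.

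Of 23444 rows, 27 held a date in place of a symbol and were left out. Values were taken as log2(FPKM + 1), so fold changes of low genes are understated. The 11188 genes that reached 1 FPKM in 2 libraries or more were fitted with limma 3.58.1 (R 4.3.3), trended prior, 3 group means and Benjamini-Hochberg adjustment at 0.05. The script was tested on simulated data. Groups came from the sample titles, and the column abbreviations of the double mutants were matched to titles by their letters. Depth was estimated in single-transcript genes over 800 bases after taking off 150 bases for the fragment, is rough, and gives counting error only. Near-identical copies were found with BLAST+ 2.17.0 among GENCODE transcripts (at least 95% identity over 200 aligned bases), which gave length, GC content and position for all 86 members.

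The members and the gene lists were chosen with earlier results of these data known, so no list has a test of its own. Named genes were the 3 with the highest and the 3 with the lowest mean above 1 FPKM, the 5 highest and 5 lowest class differences, the 4 widest ranges, 8 paralogs, 8 genes known from anaemia, and any gene called, of which there were 0; some of these genes are not reported here. Alternatives were 2 other scalings, pseudocounts of 0.1 and 5, no filter, a filter of 5 FPKM in 3 libraries, no trend, leaving out each library, a block by receptor tail and vector counted with the truncations.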

Additional observations from a re-analysis of the deposited data

Results flagged for a closer look

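In 6 of 83 tested members, adding T618I went in opposite directions on the 2 truncation backgrounds, by at least 0.25 on the log2(FPKM + 1) scale each way. Each value is the difference of 1 library from 1 library, and the difference between the backgrounds was not tested. The share of all tested genes that did so is not given here. A related pattern, lowest of the 6 libraries in T618I/Q741 and highest in T618I/W791, was found for 25.4% of all tested genes and 19.3% of members. The values are on the deposited scale. Median-ratio scaling moved the member median of T618I/Q741 against Q741 from 0.07 to 0.25. The values on Q741, and with them the count of 6, rest on the scaling. Rpl22l1 was at -0.89 on Q741 and 0.29 on W791. The paralog Rpl7l1 was at -0.50 on Q741 and 0.40 on W791, and the paralog Rps27l at -0.43 and 0.65. Rpl26 was at -0.34 on Q741 and 1.18 on W791, Rpl30 at -0.31 and 0.75, and Rpl34 at -0.55 and 0.61. The rows of Rpl26, Rpl30 and Rpl34 hold 16.2% or less of the sum with their near-identical copies, and those sums spanned 1.20-fold to 1.22-fold over the 6 libraries.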

How the results depend on the processing

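Under each of 18 alternatives for T618I-containing against truncation, 12 for T618I-containing against vector and 12 for truncation against vector, 0 members were called. The lowest adjusted p of a member by limma under any of them was 0.122, 0.210 and 1, the first with vector counted with the truncations and median-ratio scaling, a combination chosen after seeing the data. Leaving out each library in turn moved the member median between -0.06 and 0.06, between -0.19 and -0.11, and between -0.19 and -0.08. Samples carry no replicate numbers, so the pairing was by receptor tail, with vector paired to T618I. With the tail as a replicate block over 3 pairs, 0 members were called. The member median was -0.05 with 22 of 83 above 0, where 3823 of 11188 tested genes lay above 0. In all, 83 genes were called higher and 36 lower. The same libraries without the block, with vector counted with the truncations, gave 75 and 22. The main fit, which keeps vector out of this contrast, gave 20 and 2, so it differs from the block fit in more than the block. With the block over the 2 truncation pairs alone, 0 members and 146 higher and 68 lower genes were called. Of all genes, 3 higher and 2 lower were called without a filter, and between 2 and 30 higher with 1 library left out; the cause was not tested. At 1.5-fold in place of 2-fold, the members past the threshold were 1 for T618I against vector, 2 for T618I/Q741 against Q741 and 4 for T618I/W791 against W791, and a pseudocount of 0.1 gave 1 (Rps27) for the first. The class difference of the summed share was 0.0837 percentage points in place of -1.01 with S100a8, S100a9 and the stefin A genes left out of the total. Depth limits the rows under 10 FPKM, such as Rps27 with a counting error of 12% to 18%, and not the abundant members, where it was 0.42% to 0.64% for Rpl41.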
